A study of Mus musculus with 4 samples.

Results

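The splicing factor genes examined here are the genes for the small nuclear ribonucleoproteins (snRNPs), the SF3A and SF3B complexes, the Prpf proteins, the SR proteins and the heterogeneous nuclear ribonucleoproteins (hnRNPs). They were chosen by gene symbol alone, and 71 of the 50559 genes listed in the deposited table carried such a symbol. The 71 fall into 27 core snRNP genes (Snrp, Snrnp, Sf3a and Sf3b symbols), 13 Prpf genes, 11 SR protein genes (Srsf) and 20 hnRNP genes (Hnrnp). Counts sufficed to test 70 of them, among 18144 genes tested in all. The missing one was Snrpf. RNA-seq was compared in mouse embryonic stem cells (ESCs) of the E14 line after knockdown of Cnot1 by siRNA (siCnot1) or after transfection of a non-targeting control siRNA (siNT). There were 2 libraries per group, described in the study's methods as biological replicates, and collection followed transfection by 48 h. Both groups grew on gelatin with KnockOut Serum Replacement and leukemia inhibitory factor. The study's methods describe its ESCs as carrying a tdTomato reporter under the promoter of the MERVL retrotransposon. CNOT1 holds together the CCR4-NOT deadenylase, which shortens the poly(A) tails of mRNAs, and the study asked how loss of CNOT1 changes the transcriptome of ESCs. All cells came from 1 line, and which of the siRNAs listed against Cnot1 was used for these libraries is not given in the sources used here.

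Splicing is carried out by the spliceosome, which is built on an intron from the U1, U2, U4, U5 and U6 snRNPs. Each snRNP other than U6 carries a ring of Sm proteins on its small nuclear RNA, U6 carries the related LSm ring, and the SF3A and SF3B complexes belong to the U2 snRNP that grips the branch point. SR proteins bind exons and help recruit the snRNPs, while hnRNPs coat the nascent transcript and often act in the opposite direction on splice site choice. Many SR protein and hnRNP genes limit their own mRNA through alternative exons that lead to nonsense-mediated decay.

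The siRNA lowered its target. Cnot1 measured 913 and 986 normalized CPM (counts scaled to library size with edgeR's TMM method) in siNT and 185 and 192 in siCnot1. Library totals lay between 32135824 and 32557440 counts, so the groups were sequenced to similar depth. Of the 8 ESC markers checked, including Pou5f1, Sox2 and Nanog, the summed level was 6291 and 6209 normalized CPM in siNT and 5253 and 5482 in siCnot1, and 6 were called lower. The 8 markers of the 2-cell-like state summed to 73.1 and 71.4 normalized CPM in siNT and 181 and 189 in siCnot1, with 6 called higher. The fibroblast markers Col3a1 and Dcn and the mesoderm marker T had no count in any library. Summed levels were 52.15 to 81.7 normalized CPM for trophectoderm (3 of 5 tested called lower) and 11.1 to 21.6 for primitive endoderm (2 of 5 called higher). They were 92.6 to 138 for neural genes (1 called in each direction of 4) and 8.74 to 13.3 for fibroblast genes (1 of 3 called higher). Mesoderm genes summed to 18.4 to 22.5, nearly all of it Eomes at 17.6 to 21.7, and neither of the 2 tested was called. Mitochondrial transcripts took 1.17% and 1.401% of the counts in siNT and 2.11% and 1.76% in siCnot1. The part of these shifts in the changes described here was not tested. In bulk RNA, fewer cells of a kind and less RNA per cell cannot be told apart.

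Splicing factor mRNAs were lower in the siCnot1 libraries across all 4 families, by small amounts. Of the 70 tested, 45 fell and 1 rose under edgeR's quasi-likelihood test (adjusted p under 0.05, Benjamini-Hochberg over the 18144 genes tested), which is 64.3% lower and 1.43% higher. Over all genes tested, 14.7% were called lower and 15.0% higher. The median log2 fold change of the 70 was -0.20, a loss of 12.8%, beside a median of 0.01 over all genes tested. Single values ran from -0.42 for Hnrnpd to 0.18 for Prpf4b, and 63 of the 70 lay below 0. Both siCnot1 values lay below both siNT values for 56 of the 70 genes, against 31.2% of all genes tested, and above them for 3, against 32.7%. The study's own criterion was an unadjusted DESeq2 p of at most 0.05 with a log2 fold change of 1 or more in size. The same cutoffs on the edgeR values used here took in 7.98% of all genes tested and no splicing factor gene, since none moved that far. Taken as a pool, the 71 genes held 28090 and 27620 normalized CPM in siNT and 23330 and 24060 in siCnot1, 85.0% of the control level. On the same scale the pool of all genes tested stood at 92.8% of its control level. As a share of library totals the 71 genes went from 2.71% and 2.66% to 2.43% and 2.48%, 91.6% of the control share, so the size of the pool's loss depends on the scaling.

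**Figure D1:**
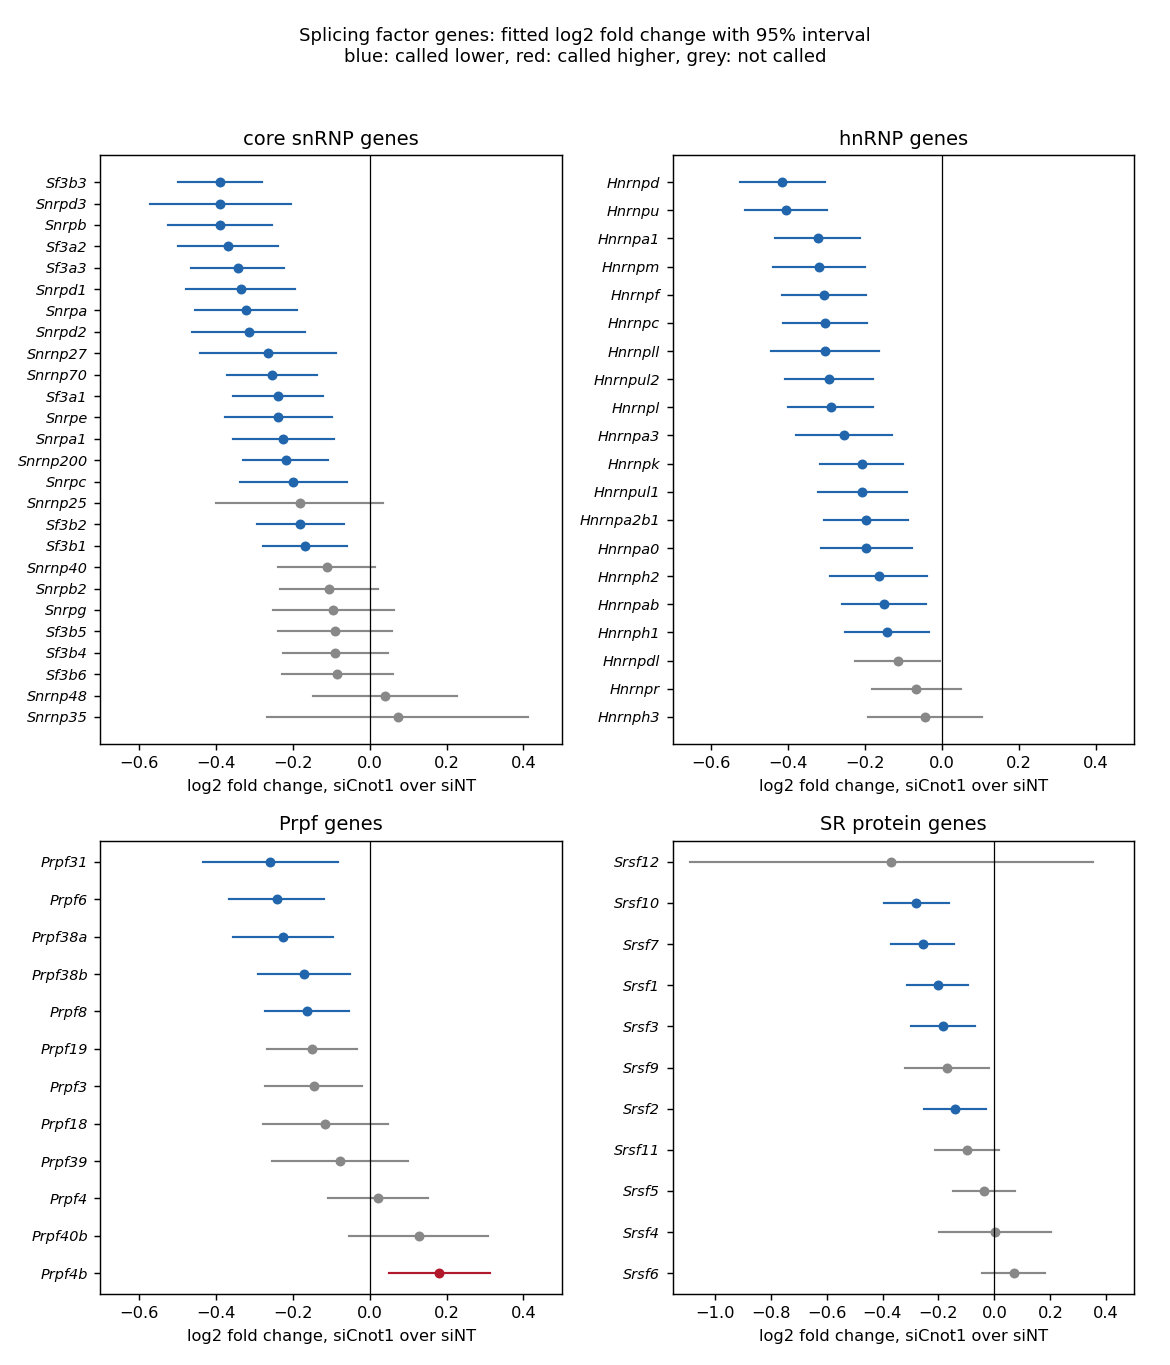
Fitted log2 fold change (siCnot1 over siNT, x axis) of tested splicing factor genes in 4 panels by family, with bars for the 95% confidence interval over 2 libraries per group; blue points were called lower, the red point higher and grey points were not called. Most points lie left of 0, all 20 hnRNP genes among them, and only Prpf4b is called to the right.

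The count of calls was sensitive to each library. With siNT replicate 1 left out 12 genes were called lower, with siNT replicate 2 left out 21, and without siCnot1 replicate 1 or 2 the counts were 17 and 26, each with 1 library left in an arm that was assumed to vary like the others. The median stayed between -0.23 and -0.17 in these fits. Scaling by library totals in place of TMM raised the median of all genes tested from 0.01 to 0.12 and the genes called lower fell from 45 to 20, with 3 called higher; over all genes that scaling called 3999 higher and 1563 lower, against 2719 and 2668. That change of scaling shifts every gene alike, and it turned the sign of 10 splicing factor genes, none of them called.

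Level has to be read beside this. The splicing factor genes are abundant, and 60 of the 70 lay in the top quintile of tested genes by siNT level (68.0 normalized CPM or more). Genes in that quintile had a median log2 fold change of -0.11, with 40.3% called lower and 11.1% higher. The 60 splicing factor genes there had a median of -0.20, with 43 called lower and 1 higher. Of the 8 in the next quintile, 2 were called lower, where the share over all genes was 16.8%, and the 1 gene in each of quintiles 2 and 3, Srsf12 and Snrnp35, was not called.

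**Figure D2:**
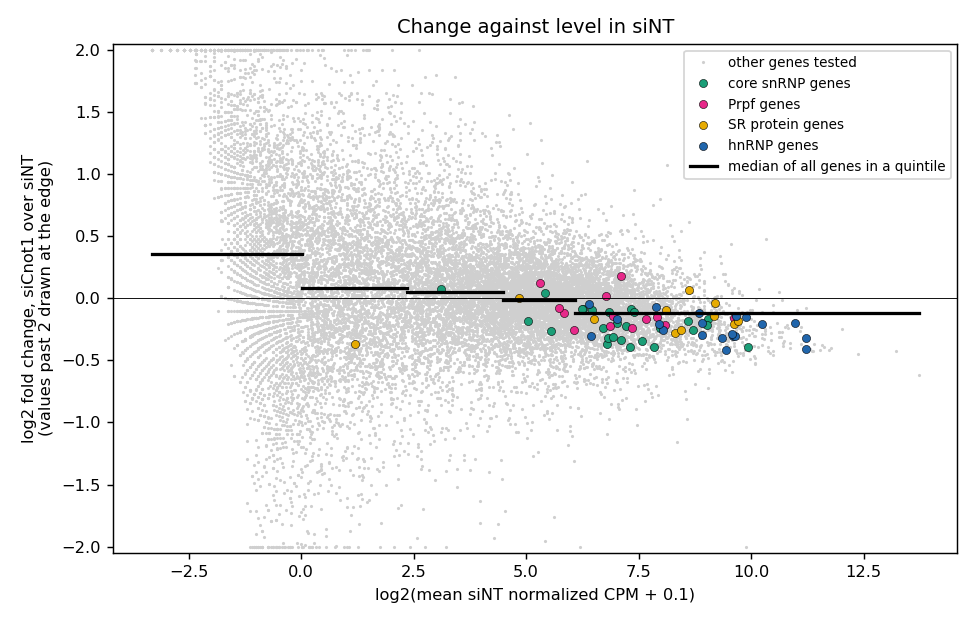
Fitted log2 fold change (y axis, values past 2 drawn at the edge) against log2 of the mean siNT normalized CPM plus 0.1 (x axis) for every gene tested, with the 4 families coloured and black lines at the median of all genes in each quintile of level. The coloured points sit mostly in the top quintile and mostly under its median line of -0.11.

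Exon length also went with the fold changes of all genes. The median over all genes rose from -0.12 in the shortest quintile to 0.09 in the longest, while the splicing factor genes had medians of -0.22, -0.16, -0.18, -0.20 and -0.17 from the shortest quintile to the longest. With an offset that removes the trend with length, the median of the 70 genes was -0.20 and 45 were called lower, 40 of them also lower without the offset, but the families moved apart: the core snRNP median went from -0.22 to -0.15 and the hnRNP median from -0.23 to -0.29.

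Among the core snRNP genes, 17 of the 26 tested fell and none was called higher, by edgeR, at an unadjusted p under 0.05, by DESeq2 or by limma-voom. In the top level quintile 16 of 22 were called lower (72.7%), beside 40.3% of all genes there. Their median log2 fold change was -0.22, their pool went from 5379 and 5267 normalized CPM to 4388 and 4556, and for 21 of the 26 both siCnot1 values lay below both siNT values. Without siNT replicate 1, siNT replicate 2, siCnot1 replicate 1 or siCnot1 replicate 2 the number called lower was 4, 9, 5 and 11, and it was 9 with library totals.

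The Sm ring, the 7-protein core shared by the snRNPs, was lower in all 6 members tested, and 5 of them fell. All 6 lay in the top level quintile, where 40.3% of all genes were called lower. Snrpb, which encodes SmB, measured 245 and 214 normalized CPM in siNT and 169 and 182 in siCnot1 (log2 fold change -0.39, SE 0.0652, adjusted p = 7.8e-05 from edgeR). Snrpd1, for SmD1, went from 142 and 133 to 102 and 116 normalized CPM, a log2 fold change of -0.34. Snrpd2, its partner in the ring, went from 125 and 118 to 90.4 and 105 normalized CPM (-0.31). These 3 genes did not overlap between the groups. Snrpe went from 109 and 98.7 to 86.4 and 89.4 normalized CPM (-0.24, adjusted p = 0.00907 from edgeR), also without overlap, but was not called with the length offset (-0.05) or with library totals (-0.13). With the length offset the median of the ring genes went from -0.33 to -0.18, with 4 called lower. Snrpd3 measured 182 and 136 normalized CPM in siNT and 115 and 128 in siCnot1; siNT replicate 1 stood well above the other 3 libraries. Its log2 fold change of -0.39 (adjusted p = 0.00169 from edgeR) was lost with DESeq2 (adjusted p = 0.196) and was between -0.58 and -0.17 when a library was left out. Snrpg was not called, at 95.7 and 81.0 normalized CPM against 79.8 and 85.8, with overlapping groups and a 95% interval of -0.25 to 0.06.

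Snrpf, for the last ring protein SmF, held only 5 and 2 counts in siNT and 4 and 7 in siCnot1, against at least 2540 for every other ring gene. Its annotated exons (GRCm39, minus strand, chromosome 10, 93418891 to 93425520) are covered for 69.7% of their bases by exons of Ccdc38 on the other strand and for 14.8% by those of 4933408J17Rik. Ccdc38 itself had 176 to 213 counts. The library kit keeps strand, but whether the counting used it is not given in the sources used here, and the part of the overlap in the low count was not tested. No change of Snrpf was detectable at this depth.

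The U1 proteins recognise the start of the intron. Snrnp70 fell from 430 and 401 to 341 and 357 normalized CPM, Snrpa from 108 and 116 to 90.2 and 89.6, and Snrpc from 137 and 120 to 110 and 114, so all 3 were called lower, with log2 fold changes of -0.25, -0.32 and -0.20. In each of them the siCnot1 libraries were the lower ones. The 3 genes lay in the top level quintile, where 40.3% of all genes were called lower. Snrpc lost the call with the length offset (-0.06, adjusted p = 0.515 from edgeR) and with library totals (-0.09). Snrpa shares 21.0% of its exon bases with BC024978 on the opposite strand, and reads of the pair cannot be told apart if strand was not used.

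Of the 11 U2 genes, all in the top level quintile, 7 fell (63.6%), beside 40.3% of all genes there. Sf3b3, a large scaffold subunit of SF3B (GRCm39, chromosome 8, 111537123 to 111573578, minus strand), had the smallest adjusted p of the core snRNP genes, with 946 and 995 normalized CPM in siNT and 739 and 744 in siCnot1 (-0.39, 95% interval -0.50 to -0.28, adjusted p = 5.92e-06 from edgeR). The 3 subunits of SF3A, which joins U2 to the branch region, moved together. Sf3a2 went from 111 and 111 to 85.4 and 86.6 normalized CPM (-0.37), Sf3a3 from 194 and 186 to 149 and 151 (-0.34) and Sf3a1 from 256 and 248 to 213 and 215 (-0.24). In all 3 the gap between the groups was several times the spread within them. Sf3b1, the subunit that holds the branch point adenosine, fell less, from 518 and 533 to 468 and 467 normalized CPM (-0.17, adjusted p = 0.0188 from edgeR). Sf3b2 (-0.18) and the U2 protein gene Snrpa1 (-0.22) were also called lower, Snrpa1 not with the length offset (-0.14). With library totals Sf3b3, Sf3a2 and Sf3a3 were the 3 U2 genes called. Snrpb2, Sf3b4, Sf3b5 and Sf3b6, for smaller subunits, had values of -0.11 to -0.08 and were not called.

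Of the U5 and tri-snRNP genes, Snrnp200, the helicase that unwinds U4 from U6, fell from 510 and 521 to 436 and 451 normalized CPM (-0.22). Snrnp27 went from 46.4 and 46.5 to 38.3 and 39.1 (-0.26), a call that was lost with the length offset (-0.13), with library totals (-0.16) and whichever library was left out. Snrnp200 was not called with library totals (-0.11), and Snrnp40 was not called at -0.11. The 3 genes of the minor U11/U12 snRNP, Snrnp25, Snrnp35 and Snrnp48, had values of -0.18, 0.07 and 0.04, and none was called by edgeR, DESeq2 or limma-voom or had an unadjusted p under 0.05. They had the lowest siNT levels of the core snRNP genes tested, with 7.27 to 46.4 normalized CPM over the 4 libraries, and their pool of 86.9 and 80.3 in siNT and 84.0 and 78.7 in siCnot1 overlapped. The 95% intervals were -0.40 to 0.04 for Snrnp25, -0.27 to 0.41 for Snrnp35 and -0.15 to 0.23 for Snrnp48, so a fall as large as the Sm ring's median of -0.33 lies inside the first of them only.

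Promoters were compared between the families as a description of their sequence. The window is 250 bases before to 50 after the start of each gene in RefSeq (GRCm38.p6), present for 62 of the 71 genes. CCGGAAG, the core recognised by ETS factors, was searched on both strands and occurred in 12 of 22 core snRNP promoters (54.5%), against 11.1% of 18 hnRNP promoters, 36.4% of 11 SR protein promoters and 27.3% of 11 Prpf promoters. It occurred in 16.3% of the promoters of genes tested and in 9.12% of all promoters in the table. The share was 32.5% among the 40 genes called lower and 35.0% among the 20 not called. The promoters of Sf3b3 and of the Sm gene Snrpe are shown as core snRNP examples that fell, with ETS and CCAAT matches on either strand in capitals; in Snrpe 2 matches on opposite strands overlap. They lie at chr8:110846754-110847053 and chr1:133610231-133610530 of GRCm38.p6, both on the minus strand, and are written 5′ to 3′ on the strand of the gene.
Sf3b3: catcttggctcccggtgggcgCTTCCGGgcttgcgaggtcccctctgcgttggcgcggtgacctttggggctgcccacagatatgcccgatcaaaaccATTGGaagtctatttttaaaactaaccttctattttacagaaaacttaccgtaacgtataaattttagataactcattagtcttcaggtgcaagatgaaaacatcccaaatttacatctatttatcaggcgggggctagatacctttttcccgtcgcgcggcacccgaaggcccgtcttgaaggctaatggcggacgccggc
Snrpe: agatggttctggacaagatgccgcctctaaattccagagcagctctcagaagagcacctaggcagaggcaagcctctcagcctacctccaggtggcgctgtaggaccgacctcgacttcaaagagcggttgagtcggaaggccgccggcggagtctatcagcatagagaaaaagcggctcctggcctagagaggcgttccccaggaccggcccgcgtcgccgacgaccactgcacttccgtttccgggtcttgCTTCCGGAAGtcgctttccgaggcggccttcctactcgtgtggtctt
Sf3b3 holds 1 ETS match near the upstream end and 1 CCAAT match, and Snrpe holds no CCAAT.

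The Prpf genes, mostly components of the tri-snRNP and of the catalytic core, held genes called in both directions. Of 13, 6 fell and 1 rose (46.2% lower), and in the top level quintile 5 of 9 fell (55.6%), beside 40.3% of all genes there. The family had a median of -0.15 and a pool of 2344 and 2376 normalized CPM in siNT and 2146 and 2145 in siCnot1. Prpf8, the central scaffold of the catalytic spliceosome, fell from 767 and 796 to 696 and 701 normalized CPM (-0.16, adjusted p = 0.022 from edgeR). Prpf6, which bridges U5 and U4/U6, fell from 163 and 162 to 134 and 140 (-0.24, adjusted p = 0.00321 from edgeR). Prpf38a, needed for spliceosome activation, fell from 114 and 118 to 97.0 and 101 (-0.22). Both siCnot1 libraries were below both siNT libraries for these 3, and Prpf38a was at the threshold with the length offset (-0.16, adjusted p = 0.051 from edgeR). Prpf38b (-0.17) and Prpf31 (-0.26) were also called lower; Prpf31 shares 43.2% of its exon bases with Gm15927 on the opposite strand. Prpf19, the ubiquitin ligase of the catalytic spliceosome, stood at the threshold (-0.15, adjusted p = 0.05 from edgeR). The number called lower was 0 without siNT replicate 1 and 1 without any other single library, and 0 with library totals, where the median was -0.04.

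Prpf4b was the only splicing factor gene called higher. It encodes a kinase of the tri-snRNP (GRCm39, chromosome 13, 35058803 to 35090047, plus strand). It measured 132 and 144 normalized CPM in siNT and 162 and 151 in siCnot1, without overlap (0.18, 95% interval 0.05 to 0.31, adjusted p = 0.0331 from edgeR). The call was lost with DESeq2 (adjusted p = 0.0547), without the filter on low counts, with the length offset (log2 fold change 0.09, adjusted p = 0.264) and when any of the 4 libraries was left out, where the value lay between 0.12 and 0.24. Prpf40b, at 40.4 and 38.9 against 44.6 and 42.1 normalized CPM, also lay above siNT in both libraries and was not called (0.13, 95% interval -0.05 to 0.31), except with library totals, where both Prpf4b and Prpf40b were called higher.

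Of the 11 SR protein genes, 5 fell and none was called higher by edgeR, at an unadjusted p under 0.05, by DESeq2 or by limma-voom. All 5 were among the 9 SR protein genes of the top level quintile (55.6%), where 40.3% of all genes were called lower. The median log2 fold change was -0.17, and the pool went from 4246 and 4255 normalized CPM to 3801 and 3913. Srsf10, which acts as a general splicing repressor when dephosphorylated, fell from 306 and 326 to 262 and 259 normalized CPM (-0.28, adjusted p = 5.45e-04 from edgeR). Srsf7 (GRCm39, chromosome 17, 80507509 to 80514798, minus strand), an SR protein also active in mRNA export, fell from 346 and 351 to 288 and 296 (-0.26, adjusted p = 9.51e-04 from edgeR). Srsf1, the founding SR protein, fell from 781 and 791 to 688 and 677 (-0.20), and Srsf3, the smallest of the family, from 853 and 827 to 707 and 773 (-0.18). The 4 genes did not overlap between the groups. Srsf2 was called at the margin (-0.14, adjusted p = 0.049 from edgeR).

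The other 6 SR protein genes were not called. Srsf5 was the most abundant SR protein mRNA per length, at 355 FPKM (normalized CPM divided by the deposited exon length in kilobases) in siNT, and its groups overlapped at 600 and 583 normalized CPM in siNT and 565 and 588 in siCnot1 (-0.04, 95% interval -0.15 to 0.07). The sign of Srsf5 changed with library totals (0.07) and with the length offset (0.01). Srsf6 measured 388 and 400 normalized CPM in siNT and 408 and 418 in siCnot1, higher in both siCnot1 libraries but not called (0.07, 95% interval -0.04 to 0.18). Srsf4 stayed at 27.9 to 28.9 normalized CPM in the 4 libraries, with 34.7% of its exon bases shared with Gm12992 on the opposite strand. Srsf9 (-0.17) and Srsf11 (-0.10) had lower values in both siCnot1 libraries without passing the test, and Srsf12, at 1.19 to 2.70 normalized CPM, had an interval from -1.09 to 0.35. The number of SR protein genes called lower was 2 without siNT replicate 1, 1 without siNT replicate 2, 2 without siCnot1 replicate 1, 3 without siCnot1 replicate 2 and 2, Srsf7 and Srsf10, with library totals, where Srsf6 was called higher.

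The hnRNP genes took 57.2% of the siNT pool in normalized CPM. In FPKM, which divides by the deposited exon length, they took 43.7%, ahead of the core snRNP genes at 34.7%. That length covers all exons listed for a gene and is not a transcript length. All 20 had a log2 fold change below 0, 17 fell, and none was called higher by edgeR, at an unadjusted p under 0.05, by DESeq2 or by limma-voom. The median was -0.23 and the pool went from 16120 and 15720 normalized CPM in siNT to 12990 and 13440 in siCnot1, 83.0% of the control level. All 20 lay in the top level quintile, where 40.3% of all genes were called lower, against 85% of the hnRNP genes. For 19 of the 20 both siCnot1 values lay below both siNT values. The number called lower was 6, 10, 9 and 11 without siNT replicate 1, siNT replicate 2, siCnot1 replicate 1 and siCnot1 replicate 2, and 9 with library totals.

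Hnrnpu, a nuclear matrix protein that also organises chromatin (GRCm39, chromosome 1, 178148673 to 178170063, minus strand), measured 2372 and 2399 normalized CPM in siNT and 1765 and 1835 in siCnot1 (-0.41, 95% interval -0.51 to -0.30, adjusted p = 2.13e-06 from edgeR). Hnrnpd, the AU-rich element binding protein AUF1 (chromosome 5, 100103794 to 100126926, minus strand), measured 682 and 703 in siNT and 514 and 525 in siCnot1 (95% interval -0.53 to -0.30, adjusted p = 2.71e-06 from edgeR), a loss of 25.0%. In both genes the replicates lay close together and the groups far apart. Hnrnpa1, a general silencer of exons, was the most abundant of all splicing factor mRNAs per length, at 909 FPKM in siNT and 726 in siCnot1. Its libraries measured 2501 and 2305 normalized CPM in siNT and 1892 and 1949 in siCnot1 (-0.32, adjusted p = 6.7e-05 from edgeR). Hnrnpa1 has many processed pseudogenes in mouse, and how reads that fit several places were counted is not given in the sources used here. Hnrnpc, which packages nascent transcripts, fell from 782 and 764 to 621 and 630 normalized CPM (-0.30). Hnrnpf, Hnrnpl, Hnrnpll, Hnrnpm and Hnrnpul2 fell by similar amounts (-0.32 to -0.29). Hnrnpa0, Hnrnpa2b1, Hnrnpa3, Hnrnpab, Hnrnph1, Hnrnph2, Hnrnpk and Hnrnpul1 were called lower at -0.26 to -0.14, but none of these 8 with library totals. Hnrnpab shares 30.0% of its exon bases with Phykpl on the opposite strand. Hnrnpdl (-0.11), Hnrnpr (-0.07) and Hnrnph3 (-0.04) were not called, and 51.8% of the exon bases of Hnrnph3 lie opposite Rufy2, which had 1030 to 1263 counts.

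**Figure D3:**
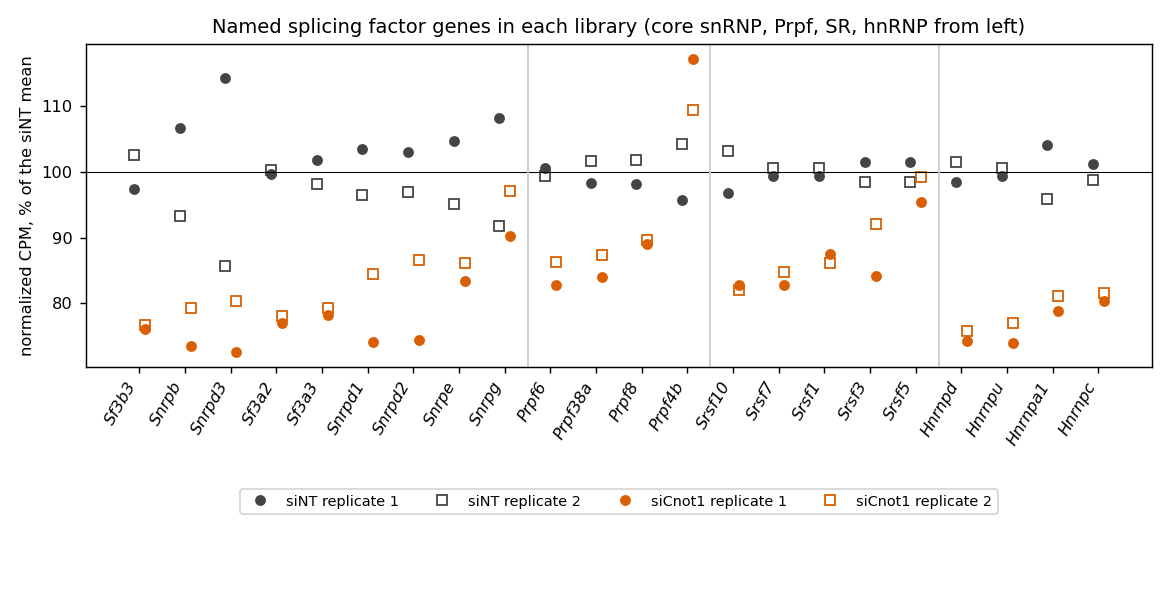
Normalized CPM of named splicing factor genes in each of the 4 libraries as percent of the mean of its 2 siNT libraries (y axis), with siNT in dark grey, siCnot1 in orange, replicate 1 filled and replicate 2 open, and grey lines between families. The siCnot1 points of Hnrnpd lie 25.0% under the siNT mean, those of Prpf4b lie above it, and those of Snrpg and Srsf5 overlap with siNT.

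In the hnRNP promoters CCAAT, the box bound by NF-Y, was found on either strand in 12 of 18 (66.7%), against 27.3% of core snRNP, 36.4% of SR protein and 54.5% of Prpf promoters, 39.0% of promoters of genes tested and 37.9% of all promoters. It occurred in 55.0% of the promoters of splicing factor genes called lower and in 25.0% of those not called. Called and uncalled genes differ in family. Of the tested genes, 85% of the hnRNP, 65.4% of the core snRNP, 46.2% of the Prpf and 45.5% of the SR protein genes were called lower. Whether CCAAT goes with the call within a family was not tested. The GC box GGGCGG occurred in 71.0% of the 62 promoters, 59.4% of those of genes tested and 35.9% of all, with the highest family share in the SR protein genes (90.9%). The NRF1 motif occurred in 17.7% of the 62, 9.07% of those of genes tested and 4.78% of all, and TATAAA in 11.3%, 7.74% and 14.2%. A match describes these letters and is not a binding site. The promoters of Hnrnpa1 and Hnrnpc, both called lower, are shown with CCAAT matches on either strand in capitals, 4 in each. They lie at chr15:103240147-103240446 on the plus strand and chr14:52103972-52104271 on the minus strand of GRCm38.p6.
Hnrnpa1: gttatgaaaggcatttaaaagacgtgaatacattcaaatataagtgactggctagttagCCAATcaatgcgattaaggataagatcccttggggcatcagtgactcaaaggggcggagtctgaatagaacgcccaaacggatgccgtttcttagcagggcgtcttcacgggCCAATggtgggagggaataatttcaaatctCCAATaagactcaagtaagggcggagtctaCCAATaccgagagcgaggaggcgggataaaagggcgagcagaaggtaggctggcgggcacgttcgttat
Hnrnpc: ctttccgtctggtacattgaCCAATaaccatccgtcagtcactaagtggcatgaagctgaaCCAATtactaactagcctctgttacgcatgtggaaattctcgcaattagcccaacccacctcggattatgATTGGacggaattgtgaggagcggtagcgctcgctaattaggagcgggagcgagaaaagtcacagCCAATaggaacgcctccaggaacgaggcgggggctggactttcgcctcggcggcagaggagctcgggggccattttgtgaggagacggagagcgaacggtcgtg
Neither window holds the ETS letters that both core snRNP examples carry.

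The remaining splicing machinery was read from 8 lists of genes outside the 4 families, whose counts stand beside 14.7% called lower over all genes tested and 40.3% in the top level quintile. The LSm ring of U6, the relative of the Sm ring, had 1 of 7 genes called lower, Lsm8 (-0.31, adjusted p = 0.00958 from edgeR), and all 7 values were below 0. A count of 1 in 7 is 14.3%, near the share over all genes. Of 7 genes for recognition of the intron's end, U2af2, the large subunit of U2AF that binds the polypyrimidine tract, fell from 567 and 524 to 405 and 443 normalized CPM (-0.36, adjusted p = 5.09e-05 from edgeR). Sf1, which binds the branch point before U2 does, fell from 426 and 430 to 349 and 362 (-0.27), and the other 5 genes of that list were not called. The 14 genes of snRNP assembly and import held 6 that fell, among them Strap (-0.31), a partner of the SMN complex, and Prmt5 (-0.30), the methyltransferase that modifies Sm proteins. In the top level quintile 4 of 9 assembly genes were lower (44.4%), near the share of all genes there. Smn1 itself was not called (-0.19, adjusted p = 0.051 from edgeR).

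Of 8 spliceosome helicases other than Snrnp200, 3 fell, among them Ddx39b, needed for U2 binding and mRNA export, at 386 and 387 normalized CPM in siNT and 289 and 318 in siCnot1 (-0.35), and Ddx46 (-0.17). All 8 lay in the top level quintile, and 37.5% called lower is near the share of all genes there. The Prp19 complex and its partners had 6 of 11 genes other than Prpf19 called lower, among them Cwc27 (-0.42) and Cwc15 (-0.36). In the exon junction complex, which is left on spliced mRNA and marks it for export and surveillance, 4 of 6 fell. Rbm8a, its Y14 subunit, went from 382 and 354 to 212 and 227 normalized CPM (-0.75, adjusted p = 3.07e-09 from edgeR), further than any of the 70 tested splicing factor genes. Rnps1, an associated SR-related protein gene, went from 187 and 162 to 128 and 139 (-0.39).

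The kinases that phosphorylate SR proteins were the list with calls only on the higher side, 3 of 7 (0 lower by edgeR, at an unadjusted p under 0.05, by DESeq2 or by limma-voom). Over all genes tested, 15.0% were called higher. In the top level quintile 1 of 3 kinases was called higher, beside 11.1% of all genes there. Clk1 rose from 112 and 113 to 172 and 154 normalized CPM (0.54, adjusted p = 1.16e-06 from edgeR) and Srpk2 from 56.8 and 60.1 to 69.6 and 69.9 (0.25, adjusted p = 0.0113 from edgeR). Clk4 was called higher at 0.30. With library totals 5 of the 7 were called higher and with the length offset 2. Srpk1, the most abundant of the 7 in normalized CPM, was not called (-0.07). The list of 23 other regulators was divided, with 8 lower and 1 higher, a median of -0.02, and 10 values above 0. In the top level quintile 6 of 16 were lower (37.5%), near the share of all genes there. Qk (-0.39) and Ptbp1 (-0.31), which bind introns and the polypyrimidine tract, were the 2 with the smallest adjusted p, and Ptbp1 measured 632 and 684 normalized CPM in siNT and 531 and 529 in siCnot1. With library totals that list had 5 called in each direction.

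**Figure D4:**
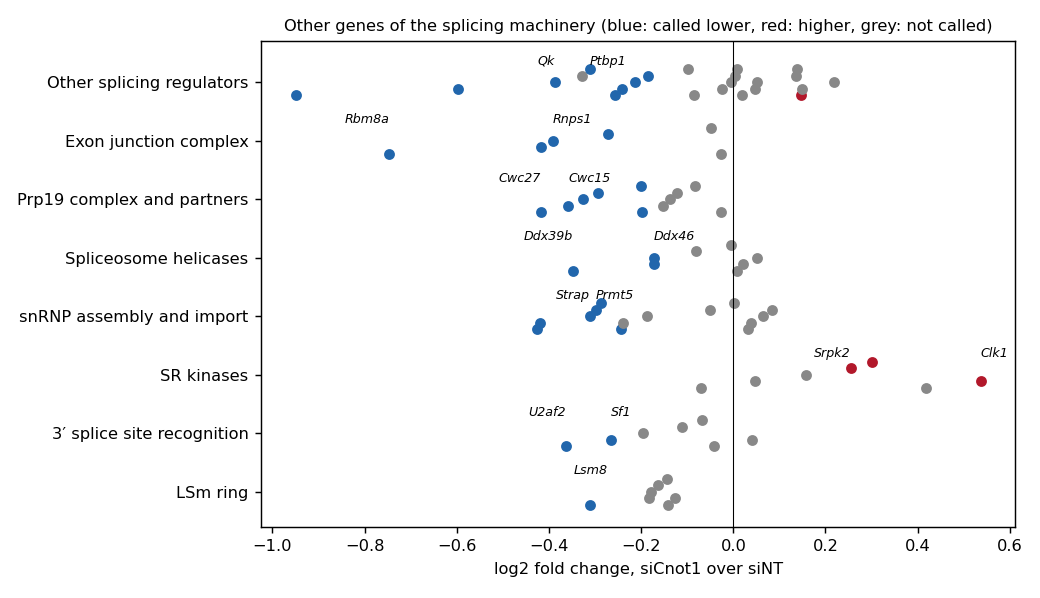
Fitted log2 fold change (siCnot1 over siNT, x axis) of the other splicing machinery genes in 8 lists (rows), with blue for called lower, red for called higher and grey for not called; names stand above the genes named in the text. Rbm8a lies at -0.75 in the exon junction complex, and Clk1 at 0.54 among the SR kinases.

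Some calls held under more settings than others. Of the 46 called genes, 17 were called in the same direction in every alternative that kept the 4 libraries, and 10 of those also in every fit that left 1 library out: Hnrnpa1, Hnrnpc, Hnrnpd, Hnrnpf, Hnrnpl, Hnrnpu, Sf3a2, Sf3a3, Sf3b3 and Srsf7. The list of 10 was read after the values were seen. No Sm ring gene and no Prpf gene was among the 10, and 14 of the 46, Prpf4b included, were called in no fit with a library left out.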

How the data were processed

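The authors made paired-end, strand-keeping libraries from mouse ESCs and deposited raw read counts per gene, with no normalization and no pooling, beside each gene's exon length. The submitters' processing notes name fastp 0.19.4, HISAT2 2.2.1, DESeq2 1.40.2 and the mm10 build, while gene positions in the table are of GRCm39: 1067 of 48908 genes shared start and end with a GRCm38 RefSeq table. The counter, its strand setting and its handling of multiple hits are not given in the sources used here. No column was left unmapped (0).

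Genes passing filterByExpr (minimum count 10) were tested with edgeR 4.0.16 in R 4.3.3 (TMM, quasi-likelihood test, condition as the only term, Benjamini-Hochberg adjustment over 18144 genes). SE is the log2 fold change over the square root of F. Normalized CPM divides counts by the TMM-scaled total of tested genes. Totals were 32135824 to 32557440, and 3 counts were 0.0896 to 0.0964 normalized CPM, counting error only. Replicates differed beyond sampling noise (chi-square per degree of freedom 6.71 and 5.61). P-values measure the spread between these libraries. The genes, families, lists and tests were chosen with earlier results of these data known. Named genes were, per family, up to 4 called genes per direction with the smallest adjusted p and no overlap, any called gene whose log2 fold change reached 1 in size, the member with the highest siNT FPKM, all Sm ring genes, up to 2 called genes per further list, Cnot1 and the markers; any further gene was picked with its values in view. The alternatives were DESeq2 size factors, upper-quartile scaling, library totals, no filter, at least 1 CPM in 2 libraries, DESeq2 1.42.0, limma-voom (limma 3.58.1), replicate number as a block, gene length offsets (lowess span 0.3) and leaving out each library. Fits were tested on simulated data. Protein sequences were not used here. The values of 1 Prpf gene are not reported here; it is included in the counts.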

Additional observations from a re-analysis of the deposited data

How the results depend on the processing

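The numbers below cover the counts and medians of the 4 families and of the 71 genes together under 9 alternatives and 4 fits that left out a library. With library totals, 20 splicing factor genes were called lower and 3 higher (median -0.091). By family the lower calls were 9 of the core snRNP (median -0.11), 0 of the Prpf with 2 higher (-0.043), 2 of the SR protein with 1 higher (-0.063) and 9 of the hnRNP genes (-0.13). Without a filter on low counts, where 30308 genes were tested, 25 were called lower, 9 of them core snRNP, 1 Prpf and 3 SR protein genes, and 0 were called higher. Length offsets moved the core snRNP, Prpf and hnRNP medians to -0.15, -0.18 and -0.29, and upper-quartile scaling the Prpf median to -0.13. Prpf4b, the only gene called higher, was not called without the filter, with DESeq2, with length offsets or with the replicate block, so these counts were 0 in all and for Prpf genes. With 1 library left out, counts of lower calls were 12 to 26 in all, 4 to 11 core snRNP, 0 to 1 Prpf, 1 to 3 SR protein and 6 to 11 hnRNP, counts of higher calls were 0 in all and for Prpf genes, and medians were -0.23 to -0.17 in all, -0.26 to -0.18 core snRNP, -0.20 to -0.12 SR protein and -0.28 to -0.19 hnRNP; those fits had fewer samples. Fits that leave out a library test 1 against 2 samples, so a lost call there is not a smaller change.

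Of the 70 tested genes, 10 changed sign with library totals and 6 with length offsets, none of them called. Among the named genes these were 2: Srsf5 was 0.069 with library totals and 0.014 with length offsets, and Snrpg was 0.013 and 0.087 there and between -0.21 and 0.025 with 1 library left out, where only the fit without siNT replicate 1 was above 0. The cause was not tested. Over the 39 named genes with a test and 13 alternatives, 416 of 507 values kept direction and call, 86 lost the call and 5 reversed.

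Both groups carry replicate numbers 1 and 2, but same-numbered libraries did not deviate together over all genes tested (correlation -0.01). Over the tested splicing factor genes, the replicate differences in siNT and in siCnot1 were negatively correlated (-0.63). Those genes include the weakly expressed Srsf12, at 2.70 and 1.66 normalized CPM in siNT and 1.19 and 2.18 in siCnot1. Its weight in that correlation was not tested. Nothing ties same-numbered libraries to a shared source, and the numbers were not taken as pairs. With the replicate number as a block, 39 of the 46 called genes were still called, 0 of them higher; Prpf4b had an adjusted p of 0.0614 there (edgeR).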
